A study of Mus musculus with 6 samples.

Results

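The Snora RNAs and the Scarna RNAs are 2 groups of small guide RNAs of the nucleus. They were taken as every row of the deposited table whose gene name begins with Snora or Scarna and whose RNA type is a small RNA type, which gave 44 of 28660 genes without the spike-ins, 35 named Snora and 9 named Scarna, all typed as small nucleolar RNA. The data come from the HL-1 line, mouse cardiomyocytes of atrial origin that contract in culture, grown in Claycomb medium with serum, L-glutamine and norepinephrine. Nuclei were freed with detergent and split biochemically into the chromatin pellet extract and the soluble nuclear extract, with 3 libraries of each fraction, which the labels call biological replicates. All libraries are from the same untreated line, so the fraction is the only contrast. The table holds 1 FPKM value, a fragment measure scaled to transcript length and library size, for each fraction, so there is no spread between replicates, no test was possible, and every value below is a pooled value without replicate error.

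Most Snora RNAs are box H/ACA RNAs, which fold into a pair of hairpins and carry an ACA triplet close to the 3′ end. With the proteins dyskerin, Gar1, Nhp2 and Nop10 they guide the conversion of uridine to pseudouridine in ribosomal RNA inside the nucleolus. Scarna RNAs gather in Cajal bodies and guide the modification of the small nuclear RNAs of the spliceosome, and by what is known of the human RNAs they include box C/D, box H/ACA and mixed forms. In mammals nearly all of these RNAs are cut out of introns of other genes, many of which encode ribosomal proteins or no protein at all.

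The sequences that the tables at hand hold for these RNAs are microRNA hairpins that RefSeq annotates inside them, and they are shown because they include the ACA triplet of the guide RNA and because 2 of them lie in the RNAs named Scarna3a and Scarna3b, which stood near the bottom of the order of pellet enrichment. Capitals mark the ACA triplet next to the 3′ end of the annotated guide RNA. The sequences are RefSeq entries on GRCm38.p6, written 5′ to 3′.
Mir1843b in Scarna3a, chr1:159340358-159340423, plus strand: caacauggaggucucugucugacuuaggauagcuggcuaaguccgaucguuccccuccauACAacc
Mir1843a in Scarna3b, chr12:80391613-80391677, minus strand: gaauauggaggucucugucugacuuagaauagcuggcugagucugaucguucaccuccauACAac
Mir3069 in Scarna13, chr12:105031077-105031141, minus strand: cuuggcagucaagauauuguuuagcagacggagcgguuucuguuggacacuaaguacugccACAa
Mir664 in Snora36b, chr1:185242975-185243043, plus strand: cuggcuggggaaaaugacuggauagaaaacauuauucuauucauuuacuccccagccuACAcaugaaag

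The ACA triplet was followed by 3 bases up to the 3′ end of the RefSeq span in Scarna13 and in Snora36b, by 4 bases in Scarna3a and by 1 base in Scarna3b. The hairpins of Scarna3a and Scarna3b, set side by side from their first base without gaps, had the same letter at 59 of 65 positions. These hairpins cover 55.9% of the RefSeq span of Scarna3a, 51.6% of that of Scarna3b, 23.6% of that of Scarna13 and 56.6% of that of Snora36b. Another hairpin, Mir1291, overlaps Snora34 by 73 of its 117 bases and does not reach the 3′ end. The 5 guide RNAs that hold a microRNA hairpin had log2 folds of 3.15 (Scarna13), 2.62 (Snora36b), 2.09 (Snora34), 0.82 (Scarna3b) and 0.54 (Scarna3a), on the scale explained next.

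Pellet and soluble values were set on a common scale by the ERCC spike-ins, synthetic RNAs that were added to each fraction before the RNA was extracted. The pellet FPKM was multiplied by 3.37, the slope of soluble on pellet FPKM over 82 spike-ins, and the log2 fold is the log2 of that product over the soluble FPKM. A value above 0 means more RNA in the pellet per unit of spike-in. The amount of spike-in added to each fraction was not stated in the labels, and the reading assumes equal amounts. The 27 spike-ins as abundant as these RNAs, with means from 3.11 FPKM upwards, lay between -0.28 and 0.13 on this log2 scale, with an SD of 0.10 (n = 27 spike-ins). This scatter is technical and holds neither the fractionation nor the cells. The spike-ins are 273 to 2022 bases long, while the RefSeq spans of the 44 RNAs are 42 to 275 bases long with a median of 120.5, so it was not measured on RNAs of this size. The sources used here do not give the length that the authors took for each RNA, and FPKM of RNAs shorter than a sequenced fragment depends on it.

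The Snora and Scarna RNAs lay mostly towards the chromatin pellet. All 44 had a mean of at least 0.5 FPKM, the level asked of any gene that was compared. The pellet held at least 2-fold more of 40 RNAs (90.9%), against 31.9% of the 13917 genes at that level, and at least 2-fold less of 0 RNAs, against 10.5%. Their median log2 fold was 3.10, equal to 8.57-fold, with quartiles at 2.56 and 3.90, while the median of all genes compared was 0.41. The log2 folds ran from 0.02 for Snora81 to 5.41 for Scarna10. In other words, a median of 89.5% of an RNA's signal, counted in units of spike-in, was in the pellet, and the lowest share was 50.4%.

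Without the spike-in factor every log2 fold is lower by 1.75, and the median of all genes compared becomes -1.34. On that FPKM scale the pellet still held at least 2-fold more of 27 of the 44 RNAs, against 9.66% of all genes, and at least 2-fold less of 2, Scarna3a and Snora81, against 61.2%. The median of the 44 RNAs was then 1.34. Measured from the median of all genes compared, which removes the choice of scale, the median of the 44 RNAs was 2.69. Leaving out Scarna9, the most abundant of them, the median on the spike-in scale was 3.09.

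**Figure D1:**
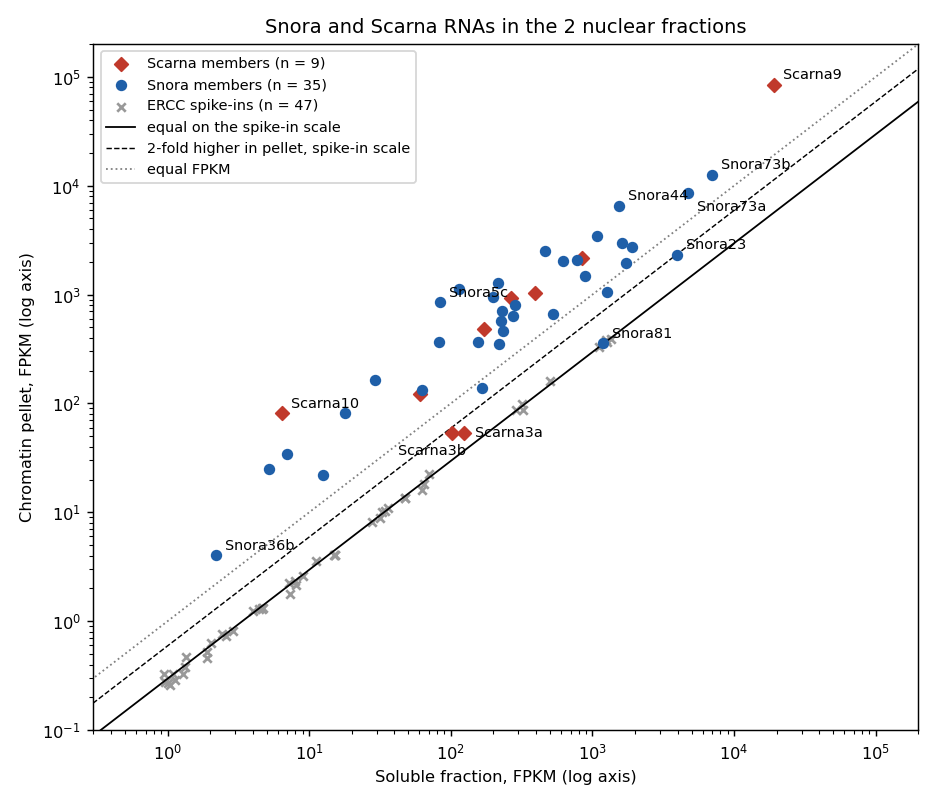
FPKM in the chromatin pellet (vertical, log axis) against FPKM in the soluble fraction (horizontal, log axis) for 9 Scarna RNAs, 35 Snora RNAs and the 47 spike-ins that reached 0.5 FPKM on average. The solid line is equality on the spike-in scale, the dashed line 2-fold more in the pellet and the dotted line equal FPKM. The spike-ins follow the solid line, 40 RNAs lie above the dashed line, and Snora81 lies on the solid line.

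These 44 RNAs took 18.03% of the summed FPKM of the pellet and 5.56% of that of the soluble fraction. Scarna9 held 56.5% of their pellet sum and 36.2% of their soluble sum, and without it the shares of the fractions were 7.84% of the pellet and 3.55% of the soluble fraction. Among all 321 rows typed as small nucleolar RNA, the 44 RNAs held 28.7% of the pellet FPKM and 31.3% of the soluble FPKM. Their levels spread widely in both fractions. Pellet values ran from 4.02 FPKM for Snora36b to 84861 FPKM for Scarna9 with a median of 753, and soluble values from 2.20 to 19110 FPKM with a median of 231. The fold varied little with the level, and the correlation of log2 fold with log2 mean FPKM was -0.06 (Pearson) and -0.10 (Spearman) over the 44 RNAs, which share the same pooled libraries.

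The Scarna RNAs fell into 7 (77.8%) that were 2-fold or more higher in the pellet and 2 that were not. The share was 94.3% among the 35 Snora RNAs and 31.9% among all genes compared. The median log2 fold of the Scarna RNAs was 3.15, close to the 3.01 of the 35 Snora RNAs, a difference of 0.14. Scarna9, a guide for the U2 small nuclear RNA in human, had 84861 FPKM in the pellet and 19110 FPKM in the soluble fraction, a log2 fold of 3.90. It is listed as ENSMUSG00000077506.1 on chromosome 9, and its RefSeq span, 15326289 to 15326330 in mm10, is only 42 bases and lies inside Cep295, a gene for a centriole protein. Its FPKM was thus the highest of the 44 RNAs in both fractions, with the shortest RefSeq span.

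Scarna2, likewise a U2 guide in human and there transcribed from a gene of its own, had 936 FPKM in the pellet and 267 FPKM in the soluble fraction, a log2 fold of 3.57. No other RefSeq gene spans it on chromosome 3, and it shares its coordinates with no other row of the table. Scarna17 on chromosome 18, the only other RNA with coordinates of its own, had 2173 FPKM in the pellet and 849 FPKM in the soluble fraction, a log2 fold of 3.11. Scarna17 lies inside the RefSeq long noncoding gene Gm41774, for which no row was used here.

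Scarna10 and Scarna6 carry both kinds of box in human and guide modifications of the U5 small nuclear RNA. Scarna10 had 80.9 FPKM in the pellet and 6.42 FPKM in the soluble fraction, and its log2 fold of 5.41 (42.5-fold) was the highest of the 44 RNAs. It lies inside Ncapd2, which encodes a condensin subunit and had 55.9 FPKM in the pellet and 119 FPKM in the soluble fraction, a log2 fold of 0.67. Scarna6, inside the autophagy gene Atg16l1, had 481 FPKM in the pellet and 171 FPKM in the soluble fraction, a log2 fold of 3.25.

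The 4 Scarna RNAs known in human as box H/ACA RNAs were spread more widely. Scarna13, inside the noncoding gene Snhg10, had 1036 FPKM in the pellet and 395 FPKM in the soluble fraction, a log2 fold of 3.15. Scarna8, inside the augmin gene Haus6, had 122 FPKM in the pellet and 60.3 FPKM in the soluble fraction, a log2 fold of 2.76. The paralogous RNAs Scarna3a and Scarna3b were within 2-fold. Scarna3b had 53.5 FPKM in the pellet and 102 FPKM in the soluble fraction, a log2 fold of 0.82, and Scarna3a had 53.2 FPKM in the pellet and 124 FPKM in the soluble fraction, a log2 fold of 0.54. By form, the 3 box C/D RNAs had a median of 3.57 (lowest 3.11), the 2 mixed RNAs 3.25 and 5.41, and the 4 box H/ACA RNAs a median of 1.79. This grouping was drawn up after the values had been seen.

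The most abundant Snora RNAs were Snora73b and Snora73a, whose yeast counterpart acts in cleavage of the ribosomal RNA precursor. Snora73b had 12559 FPKM in the pellet and 6922 FPKM in the soluble fraction, and Snora73a had 8643 FPKM in the pellet and 4696 FPKM in the soluble fraction. Their log2 folds, 2.61 and 2.63, were 0.02 apart, closer than the spike-in SD. They lie next to each other inside Snhg3 and are close relatives, between which fragments can be misassigned. Snora44 followed with 6531 FPKM in the pellet and 1530 FPKM in the soluble fraction, a log2 fold of 3.85. Snora26, inside the noncoding gene Dancr, had 3453 FPKM in the pellet and 1074 FPKM in the soluble fraction, a log2 fold of 3.44.

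Of the other abundant Snora RNAs, Snora52, inside the ribosomal protein gene Rplp2, had 2971 FPKM in the pellet and 1603 FPKM in the soluble fraction, a log2 fold of 2.64. Snora64, inside Rps2, had 2708 FPKM in the pellet and 1900 FPKM in the soluble fraction, a log2 fold of 2.26. Its neighbour Snora78, inside Snhg9, had 1952 FPKM in the pellet and 1712 FPKM in the soluble fraction, a log2 fold of 1.94. Together with Snora52 these RNAs passed 2-fold on the spike-in scale only, since their FPKM values in the fractions differed by less than 2-fold. Snora15, inside the chaperonin gene Cct6a, had 2081 FPKM in the pellet and 782 FPKM in the soluble fraction, a log2 fold of 3.17, and stayed above 2-fold on the FPKM scale at 1.41.

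The 6 largest folds among the Snora RNAs came from RNAs of very different level. Snora5c, inside Tbrg4, had 846 FPKM in the pellet and 84.5 FPKM in the soluble fraction, a log2 fold of 5.08 (33.8-fold). Snora70, inside the ribosomal protein gene Rpl10 on chromosome X, had 1121 FPKM in the pellet and 114 FPKM in the soluble fraction, a log2 fold of 5.05. Snora28, inside the initiation factor gene Eif5, had 1276 FPKM in the pellet and 216 FPKM in the soluble fraction, a log2 fold of 4.31. These 3 RNAs had at least 95.2% of their signal in the pellet.

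Snora62, inside the ribosomal protein gene Rpsa, had 163 FPKM in the pellet and 29.4 FPKM in the soluble fraction, a log2 fold of 4.23. Snora74a, inside Snhg4, had 2521 FPKM in the pellet and 465 FPKM in the soluble fraction, a log2 fold of 4.19. Snora47, inside Zbed3, had 34.1 FPKM in the pellet and 6.95 FPKM in the soluble fraction, a log2 fold of 4.05. All 3 stayed more than 4-fold higher in the pellet on the FPKM scale, with log2 values of 2.48, 2.44 and 2.29.

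At the other end stood Snora81, the RNA least drawn to the pellet. Listed as ENSMUSG00000087935.1, with a RefSeq span on chromosome 16 from 23110770 to 23110933 inside Eif4a2, an RNA helicase gene of translation initiation, it had 358 FPKM in the pellet and 1192 FPKM in the soluble fraction. Its log2 fold was 0.02, and 50.4% of its signal was in the pellet. Snora23, inside the importin gene Ipo7, was the fourth most abundant Snora RNA, with 2315 FPKM in the pellet and 3934 FPKM in the soluble fraction. Its log2 fold of 0.99 lay just under the 2-fold threshold. With Scarna3a and Scarna3b, these were the 4 RNAs within 2-fold.

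Just above the threshold stood Snora69, inside Rpl39, with 139 FPKM in the pellet and 166 FPKM in the soluble fraction, and Snora43, inside Snhg7, with 1058 FPKM in the pellet and 1266 FPKM in the soluble fraction. Their log2 folds were 1.494 and 1.495, and both are below 0 on the FPKM scale, at -0.26 each. Snora34, inside Kansl2, had 664 FPKM in the pellet and 527 FPKM in the soluble fraction, a log2 fold of 2.09. The least abundant RNA, Snora36b inside Rab3gap2, had 4.02 FPKM in the pellet and 2.20 FPKM in the soluble fraction, a log2 fold of 2.62. The other 15 Snora RNAs had log2 folds between 2.44 (Snora3) and 4.03 (Snora2b).

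**Figure D2:**
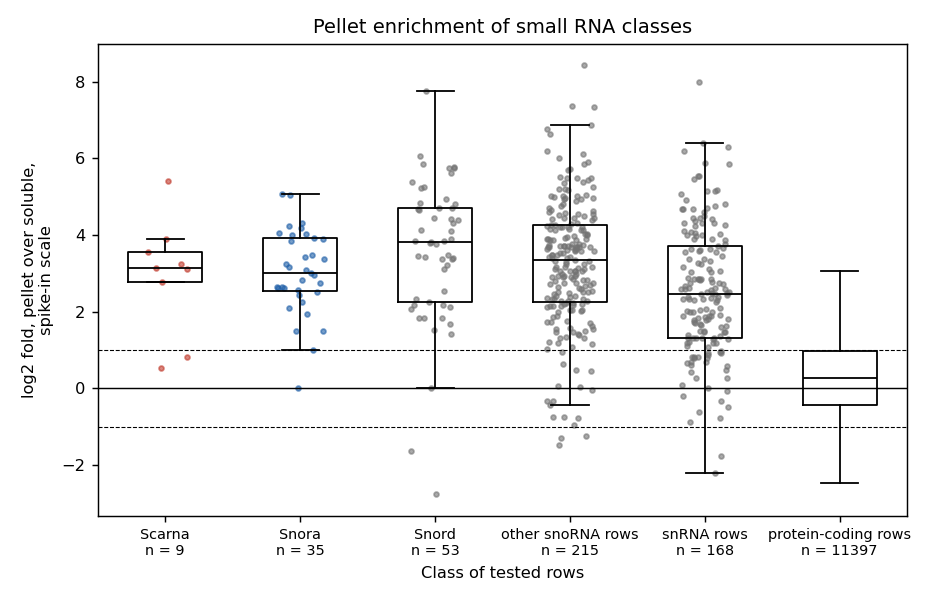
Log2 fold of pellet over soluble on the spike-in scale (vertical) for genes with a mean of at least 0.5 FPKM, by class. Boxes span the quartiles with the median as a line, whiskers reach the farthest value within 1.5 box lengths, points are single genes, and points are left out for the protein-coding class. The Scarna and Snora medians of 3.15 and 3.01 lie below the Snord median of 3.81 and above the snRNA median of 2.47.

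Set beside other classes of small RNA, the 44 RNAs were not set apart by the share that was higher in the pellet. Their share was 90.9%, against 94.3% of 53 Snord RNAs, the box C/D guides of ribosomal RNA methylation, 92.1% of 215 other small nucleolar RNA rows and 82.1% of 168 rows typed as small nuclear RNA. Their median log2 fold of 3.10 was under the 3.81 of the Snord RNAs and the 3.35 of the other small nucleolar RNA rows, and over the 2.47 of the small nuclear RNA rows. In the pellet the Snord RNAs took 19.0% of the summed FPKM and in the soluble fraction 4.57%. With a pooled value per fraction these differences between classes were not tested. Among protein-coding rows, 24.0% of 11397 were higher in the pellet and the median log2 fold was 0.26.

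Every one of the 44 RNAs was matched to a RefSeq entry of the same name on GRCm38.p6, which has the coordinates of mm10, and every RefSeq span lay inside the coordinates that the table gives. Of the 44 RNAs, 43 lay inside the span of another RefSeq gene that is not itself a small RNA gene, 38 such genes in all, called host genes here. Where several spans held the RNA the shortest was used, and strand was not taken into account. In 42 cases the table also held the host, at a mean of at least 0.5 FPKM. The 44 RNAs were spread over 19 chromosomes. The densest run was on chromosome 4, where Snora16a, Snora44 and Snora61 inside Snhg12 and Snora73b and Snora73a inside Snhg3 lay within 43515 bp, with log2 folds between 2.61 and 3.85.

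Hosts did not share the position of the RNAs they contain. Of 37 host genes, the pellet held at least 2-fold more of 10, at least 2-fold less of 11, and 16 lay within 2-fold, beside 31.9% with 2-fold more and 10.5% with 2-fold less among all genes compared. Their median log2 fold was -0.11. The RNA had a higher log2 fold than its host in 38 of 42 cases, by 2-fold or more in 35, and the median difference was 3.27 on the log2 scale. This difference is the same on the spike-in and on the FPKM scale, since the factor cancels. The 4 exceptions were Snora43 (-0.05 relative to Snhg7), Scarna3a (-0.25 relative to Cop1, a ubiquitin ligase gene that the table calls Rfwd2), Scarna3b (-0.48 relative to Dcaf5) and Snora81 (-2.70 relative to Eif4a2). Over the 42 pairs the log2 folds of RNA and host had a Pearson correlation of -0.10 and a Spearman correlation of -0.02, and their log2 mean FPKM values had 0.09 and 0.03. Hosts and RNAs come from the same pooled libraries, and the same host can stand beside several RNAs.

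The gap was widest where the host encodes a ribosomal protein. All 11 RNAs inside such genes passed 2-fold towards the pellet, beside 90.9% of the 44 RNAs and 31.9% of all genes compared. Their median of 2.95 was close to the 3.12 of RNAs inside long noncoding hosts and the 3.01 inside other protein-coding hosts. Of the 11 host messages 9 passed 2-fold the other way, against 10.5% of all genes compared. Towards the pellet 0 passed it, against 31.9%, and the median of these hosts was -1.23. The difference between RNA and host had a median of 4.47 and was between 2.84 and 5.87. Snora7a, inside Rpl32, had 947 FPKM in the pellet and 198 FPKM in the soluble fraction, and Rpl32 had 42.7 FPKM in the pellet and 521 FPKM in the soluble fraction, so that the RNA lay at 4.01 and its host at -1.85. In the soluble fraction 5 of these 11 RNAs had a higher FPKM than their host, and in the pellet all 11 had.

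Long noncoding hosts lay on both sides. Of 8 such hosts with values, 4 passed 2-fold towards the pellet, against 31.9% of all genes compared. The other 4 lay within 2-fold, and the median of the 8 was 0.76. Snhg12 had 32.6 FPKM in the pellet and 43.8 FPKM in the soluble fraction, a log2 fold of 1.33, and Snhg3 had 14.1 FPKM in the pellet and 80.3 FPKM in the soluble fraction, a log2 fold of -0.76. The 12 RNAs inside them were a median of 2.33 above their hosts on the log2 scale, and all 12 had a higher FPKM than their host in both fractions. For the 19 RNAs inside other protein-coding genes the median difference was 2.002. Among these hosts Eif4a2 stood highest, with 97.6 FPKM in the pellet and 49.8 FPKM in the soluble fraction, a log2 fold of 2.72, followed by Atg16l1 with 2.56 and Cep295 with 2.52. The table gives 42 of the 44 RNAs the same coordinates as another row, and the labels do not say how fragments of an unspliced host and of the RNA inside it were divided. Its part in these values was not tested.

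**Figure D3:**
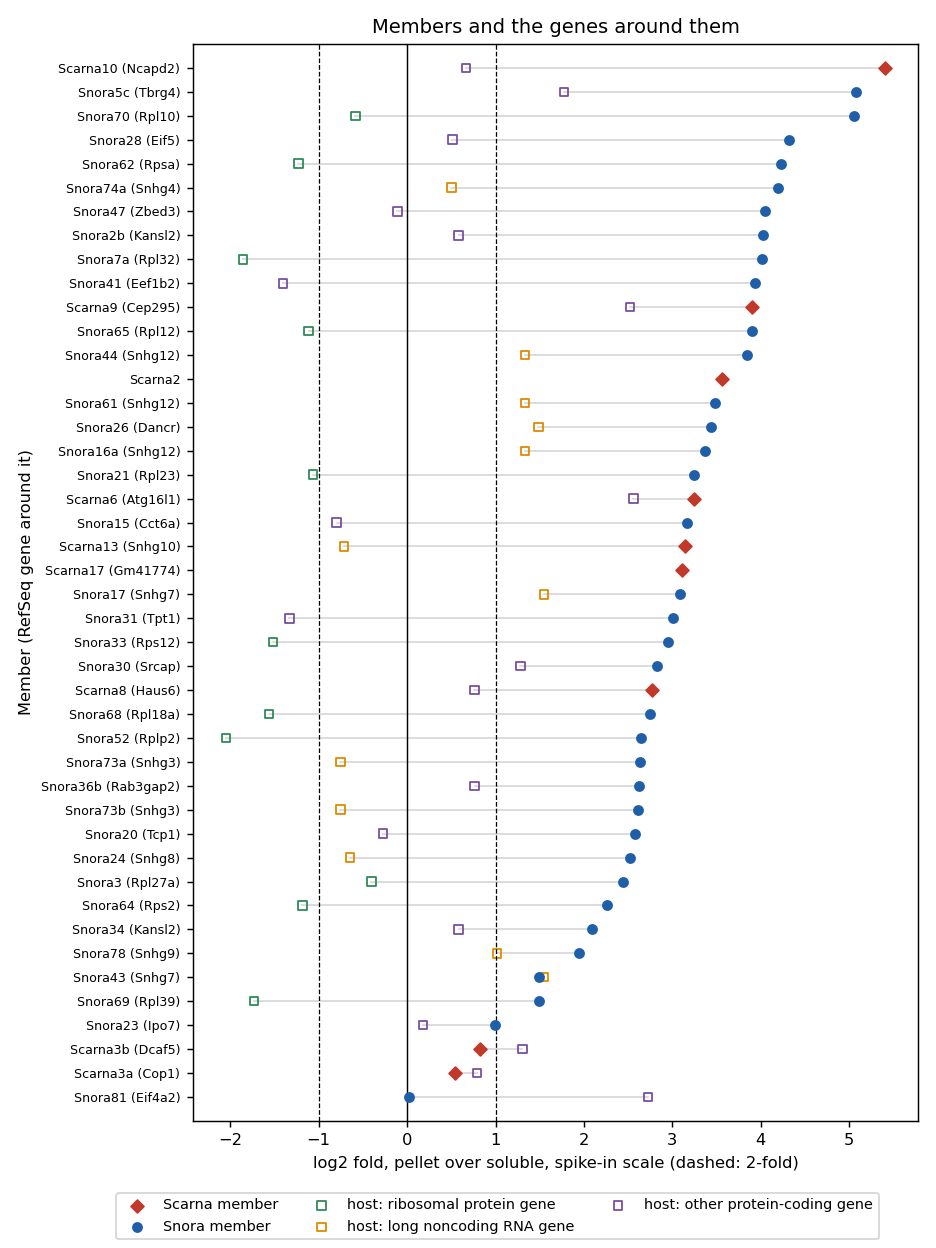
Log2 fold of pellet over soluble on the spike-in scale (horizontal) for each of the 44 RNAs (filled) and for the RefSeq gene around it (open squares, by kind of host), sorted by the RNA's fold. Dashed lines mark 2-fold. In 38 of 42 pairs the RNA lies to the right of its host, and the ribosomal protein hosts lie between -2.05 and -0.40.

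RNAs from the same host differed by amounts that ran from 0.02 to 1.94 on the log2 scale. Of 6 pairs of RNAs that share a host, the median absolute difference in log2 fold was 0.42, against 1.08 over all 946 pairs of the 44 RNAs. The pairs within Snhg12, at 0.11, 0.37 and 0.48, share RNAs with each other, so the 6 differences are not independent. The remaining pairs lay at 0.02, 1.59 and 1.94, so the median rests on the Snhg12 pairs. Whether RNAs of the same host are more alike was not tested. The Snhg12 RNAs lay between 3.37 (Snora16a) and 3.85 (Snora44), with Snora61 at 3.48. Snora16a had 706 FPKM in the pellet and 231 FPKM in the soluble fraction, and Snora61 had 2033 FPKM in the pellet and 615 FPKM in the soluble fraction. Snora2b and Snora34, both inside Kansl2, were 1.94 apart, with Snora2b at 25.2 FPKM in the pellet and 5.20 FPKM in the soluble fraction, a log2 fold of 4.03. Snora17 and Snora43, both inside Snhg7, were 1.59 apart, with Snora17 at 569 FPKM in the pellet and 225 FPKM in the soluble fraction, a log2 fold of 3.09. Of the 6 pairs, Snora73a with Snora73b had a difference under the spike-in SD of 0.10, and no replicate spread is at hand to set the others against.

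The table also holds 17 small nucleolar RNA rows without a Snora or Scarna name at 13 loci of these RNAs. All 17 passed 2-fold towards the pellet, with log2 folds from 2.03 to 5.86 and a median of 3.39. Among all genes compared 31.9% passed it. Among the 215 small nucleolar RNA rows without a Snora, Scarna or Snord name 92.1% did, with a median of 3.35, so these loci did not stand apart. At the locus of Eif4a2, where Snora81 was balanced, Gm26447 had 31656 FPKM in the pellet and 4910 FPKM in the soluble fraction, a log2 fold of 4.44. Gm24616 had 7198 FPKM in the pellet and 2573 FPKM in the soluble fraction (3.24), and Gm24201 had 253 FPKM in the pellet and 177 FPKM in the soluble fraction (2.27). The log2 fold of Snora81 minus that of its 3 neighbours was thus between -4.42 and -2.25. Snora23 likewise differed by -1.95 from Gm25636 at the locus of Ipo7, which had 475 FPKM in the pellet and 209 FPKM in the soluble fraction. In 8 of 17 such pairs the RNA and its neighbour were within 2-fold of each other in fold. By the current gene names, 2 rows with a Gm name elsewhere are also Snora genes. Gm22457 (Snora9) had a log2 fold of 3.77, with 943 FPKM in the pellet and 234 FPKM in the soluble fraction, and Gm25822 (Snora57) had 2.03, with 884 FPKM in the pellet and 730 FPKM in the soluble fraction.

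**Figure D4:**
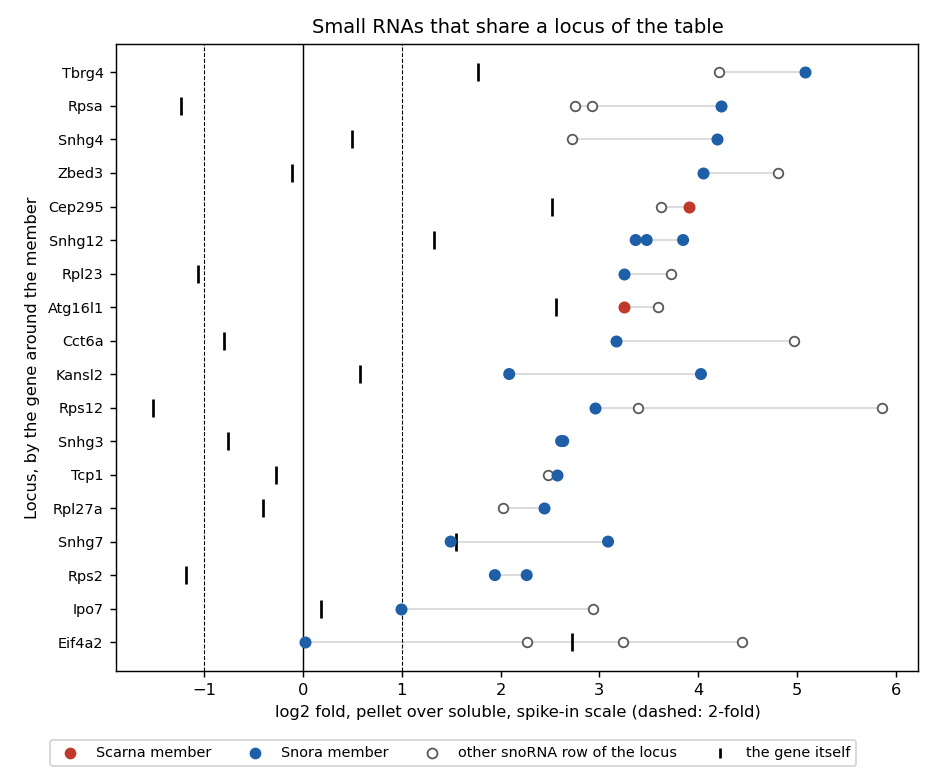
Log2 fold of pellet over soluble on the spike-in scale (horizontal) at each locus that holds a Snora or Scarna RNA and at least 1 more small nucleolar RNA row. Loci are named by the gene around the RNA, and Snora78, inside Snhg9, is drawn with Snora64 at Rps2. Filled points are Scarna and Snora RNAs, open points other small nucleolar RNA rows, bars the gene around them, and dashed lines mark 2-fold. At Eif4a2, Snora81 lies at 0.02 and its 3 neighbours between 2.27 and 4.44.

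The median fold was lower among the RNAs with longer RefSeq spans. The correlation of log2 fold with RefSeq length was -0.21 (Pearson) and -0.23 (Spearman) over the 44 RNAs. The 7 RNAs with spans under 100 bases had a median log2 fold of 3.48, the 25 with spans of 100 to 130 bases 3.17. The 12 with longer spans had 2.64, of which the 4 longest had 2.89. These spans are annotations and need not equal the length of the RNA. Scarna2 has a RefSeq span of 61 bases, while the coordinates that the table gives it run from 108554338 to 108554751. Scarna2, Scarna9, Scarna10 and Scarna17 all fall in the group under 100 bases. The Snora RNAs of that group were Snora61 at 3.48, Snora68 at 2.75 and Snora20 at 2.58. The high median of the group thus rests on its Scarna RNAs.

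The start sites of the host genes were examined because genes of the translation machinery and many noncoding hosts are known to begin transcription within a run of pyrimidines. A run of at least 6 letters C or T, read on the host's own strand between 10 bases before and 20 bases after a RefSeq start, was found in 17 of 33 host genes (51.5%) and in 32.1% of 27025 genes of the same table. It was present in 6 of 7 long noncoding hosts, 6 of 9 ribosomal protein hosts and 5 of 17 other hosts. The window and the minimum run were set after other run lengths had been looked at, and a match is a description of letters, not of a working element. For each kind of host (noncoding, ribosomal protein and other) a host with the longest run, picked after the sequences had been seen, is shown from 30 bases before the start to 30 bases from it, with the run in capitals (RefSeq, GRCm38.p6, plus strand in each case).
Snhg12, chr4:132308648-132308707: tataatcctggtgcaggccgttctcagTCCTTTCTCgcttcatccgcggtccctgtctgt
Rpl27a, chr7:109519165-109519224: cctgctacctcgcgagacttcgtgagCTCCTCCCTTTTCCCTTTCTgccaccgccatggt
Ipo7, chr7:110018285-110018344: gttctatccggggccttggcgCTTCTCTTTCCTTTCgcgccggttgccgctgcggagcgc

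The RNAs inside these genes were Snora16a, Snora44 and Snora61 (Snhg12), Snora3 (Rpl27a) and Snora23 (Ipo7). Snora3 had 350 FPKM in the pellet and 218 FPKM in the soluble fraction, a log2 fold of 2.44, and Rpl27a lay at -0.40.

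Messages for the proteins that work with these RNAs were not enriched in the pellet as the RNAs were. Among all genes compared, 31.9% passed 2-fold towards the pellet and 10.5% away from it. Of the 4 core proteins of H/ACA particles, 0 were higher, 1 was lower and 3 lay within 2-fold, with a median log2 fold of -0.87. Dkc1, which encodes the pseudouridine synthase dyskerin, had 28.6 FPKM in the pellet and 117 FPKM in the soluble fraction, a log2 fold of -0.28. Gar1 had -0.79 and Nhp2 -0.96, and Nop10, at 2.77 FPKM in the pellet and 28.7 FPKM in the soluble fraction, had -1.62. The 7 assembly factors of the H/ACA particle and of its nucleolar transport were all within 2-fold, from -0.92 for the ATPase gene Ruvbl2 to 0.80 for Naf1, with a median of -0.05. The 4 core proteins of box C/D particles were also within 2-fold, with a median of -0.13.

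Of 11 genes of Cajal bodies and of the SMN complex, 2 passed 2-fold towards the pellet and 0 away from it, and the median was 0.20. Coil, for the Cajal body scaffold coilin, had 1.90 FPKM in the pellet and 5.08 FPKM in the soluble fraction, a log2 fold of 0.33, and Wrap53, whose protein brings Scarna RNAs to Cajal bodies, had 0.20. Tgs1, for the enzyme of the trimethylated cap, reached 1.61 and Ice1 1.27, and both are below 0 on the FPKM scale at -0.15 and -0.49. Among 6 genes for trimming and debranching of intron-derived RNA, 1 was higher and 0 lower, the poly(A) polymerase gene Papd5 at 1.19, which is -0.56 on the FPKM scale. Dbr1, for the enzyme that opens intron lariats, had -0.23 and Exosc10, for a nuclear exosome nuclease, 0.74. On the FPKM scale 0 of these 32 genes were at least 2-fold higher, against 9.66% of all genes. At least 2-fold lower on that scale, against 61.2% of all genes, were 4 of 4 H/ACA core genes, 5 of 7 assembly genes, 3 of 4 box C/D core genes, 9 of 11 Cajal body and SMN genes and 4 of 6 trimming genes. Tert, for the protein subunit of telomerase, was far below the level asked, with 0.0378 FPKM in the pellet and 0.00578 FPKM in the soluble fraction, and telomerase RNA was not analysed here.

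The identity of the cells was checked against marker genes. Of 12 atrial cardiomyocyte markers 11 had a row, and all 11 reached a mean of 0.5 FPKM. Their means ran from 0.918 FPKM for Nppa, the atrial natriuretic peptide gene, to 625 FPKM for the myosin light chain gene Myl7. Of 6 fibroblast markers 5 had a row, and 3 reached that level (up to 214 FPKM for Col3a1). So did 2 of 5 endothelial markers (up to 3.57 FPKM for Kdr), 4 of 4 smooth muscle markers (up to 881 FPKM for Acta2) and 1 of 4 immune markers (Cd68, 0.640 FPKM). The depth of the libraries is unknown, since FPKM keeps no counts.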

How the data were processed

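Nuclear RNA of HL-1 cells was sequenced from 3 chromatin pellet and 3 soluble libraries after ribosomal RNA depletion and directional library preparation, per the labels. The submitters' processing notes name the build mm10 and the tools Cufflinks, Cuffdiff, HISAT2, SAMtools and bedtools, without versions or order. Per the file headers, the deposited table holds 1 FPKM value per fraction, a rescaled pellet signal and total signal, their ratio as a fold of chromatin enrichment, and log10 values of the total and ratio. FPKM keeps no counts, so depth is unknown and no interval is given. Of 30687 lines, 1945 repeated an identifier and were dropped. The log2 fold was recomputed from the FPKM columns with the spike-in factor of 3.37. The deposited rescaled signal departed from pellet FPKM times this factor by at most 0.389%. No pseudocount was used, since 0 genes had a value of 0. Genes with a mean of at least 0.5 FPKM were compared, and 2-fold was the threshold. A limma fit, meant for the case of values per replicate, could not be made. Host genes, names and sequences came from RefSeq on GRCm38.p6 and a table of gene names. Named were all Scarna RNAs, the 10 most abundant Snora RNAs, the 6 highest and 6 lowest by fold, RNAs at least 2-fold lower, paralogous copies, their hosts and the listed protein genes, and, chosen after their values were seen, further RNAs of shared hosts or at an extreme of a comparison. The members and lists were chosen with earlier results of these data known. Python 3.11.15, pandas 2.3.3 and NumPy 2.4.6 were used, and the counting was tested on simulated data.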

Additional observations from a re-analysis of the deposited data

How the results depend on the processing

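The count of RNAs at least 2-fold higher in the pellet was 40 of 44. It stayed between 37 and 41 with a 4-fold threshold, the median ratio of the spike-ins as the factor, or centring on all genes. The same held with a pseudocount of 1 FPKM, no level filter or a mean of at least 5 FPKM, and 0 were lower under each of these. The share of all genes past the threshold was not computed under these settings, so these counts have no background beside them. Dropping the level filter could not change any of the values. The lowest mean of the 44 RNAs was 3.11 FPKM, and every host used had at least 0.5 FPKM. Without the spike-in factor the count was 27, with 2 lower, and the medians were 1.34 for all RNAs, 1.25 for Snora and 1.39 for Scarna. Centred on the median of all genes they were 2.69, 2.59 and 2.74. With only the RNAs that have coordinates of their own, 2 remained, both Scarna RNAs and both higher, with a median of 3.34 for all RNAs and for Scarna, and 0.373% of the pellet and 0.118% of the soluble FPKM, which follows from their number, and no Snora or host value could be given. Without Scarna9 the shares were 7.84% of the pellet and 3.55% of the soluble FPKM. Of the 44 recomputed values, 30 stayed close to the main value and 14 moved. The 30 include every value without the level filter, which could not move. They also include the fall of the count from 40 to 27, since counts were given a wider limit. The 30 thus overstate how stable the values were. A median or share counted as moved from a shift of 0.12 on the log2 scale, the SD of the 47 spike-ins. No recomputed median or difference of medians changed sign, while counts and shares cannot. Without the spike-in factor 6 single RNAs had a log2 fold below 0: Snora43 and Snora69 at -0.26 each, Snora23 at -0.77, Scarna3b at -0.93, Scarna3a at -1.22 and Snora81 at -1.73. Leaving out a replicate could not be run, and no paired analysis was possible because the table holds 1 pooled value per fraction. Depth limits are unknown.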
